A study of Homo sapiens with 9 samples.

Results

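The genes TH, DDC, DBH, ALK and LMO1 were examined for binding of HIF-1α in a MYCN-amplified line of human neuroblastoma cells, SK-N-BE(2). The members were chosen by position: every called summit (the base of highest signal in a peak) that fell in a fixed hg19 window around each of the 5 genes. The windows held 31 of the 16463 summits in the 6 deposited peak lists, and these formed 19 of 9420 regions, a region being a stretch where intervals of any lists share at least 1 bp. Chromatin immunoprecipitation with sequencing (ChIP-seq) compared 3 libraries from normoxia (21% oxygen) with 3 from hypoxia (1% oxygen), each after 48 hours. The 3 input libraries came from 21% oxygen and have no list of their own. All libraries come from the same line, so every value below carries that line's genome. Nothing in the labels says that libraries of a group came from separate cultures, so the spread that p-values are set against may be technical.

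HIF-1 is a transcription factor whose α subunit is destroyed in oxygenated cells and builds up when oxygen is low. Catecholamines are made from tyrosine in the sympathetic neurons and adrenal chromaffin cells from whose lineage neuroblastoma arises: tyrosine hydroxylase (TH) makes L-DOPA in the rate-limiting step, DOPA decarboxylase (DDC) turns L-DOPA into dopamine, and dopamine β-hydroxylase (DBH) turns dopamine into noradrenaline. TH and DBH use molecular oxygen as a substrate. ALK is a receptor tyrosine kinase that is mutated or amplified in some neuroblastomas, and LMO1 is a transcriptional cofactor whose locus carries inherited risk for the disease. Peak lists show where HIF-1α was called and say nothing of how much of a gene is expressed.

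The windows were chr11:2175000-2210000 for TH, chr7:50510000-50650000 for DDC, chr9:136480000-136540000 for DBH, chr2:29400000-30170000 for ALK and chr11:8230000-8310000 for LMO1. All positions of peaks are 1-based on hg19. In the RefSeq gene order the protein-coding neighbours are INS and ASCL2 for TH, FIGNL1 and GRB10 for DDC, FAM163B and SARDH for DBH, CLIP4 and YPEL5 for ALK, and RIC3 and STK33 for LMO1. DBH-AS1 overlaps DBH and DDC-AS1 overlaps DDC there. A summit in a window is therefore near the named gene without being assigned to it. Exons, introns and transcription starts on hg19 were not used here, nor were the other genes of catecholamine synthesis and transport.

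HIF-1 binds a short core, ACGTG or GCGTG, and the stretches upstream of the DBH and DDC starts are shown because their windows held the highest folds. These are the 250 bases before each start, 5′ to 3′ along the gene, from RefSeq on GRCh38.p14. Their positions are on another build than the peaks and cannot be set against them. Capitals mark matches to the core on either strand (CACGT and CACGC on the opposite strand).
DBH, chr9:133636113-133636362, plus strand: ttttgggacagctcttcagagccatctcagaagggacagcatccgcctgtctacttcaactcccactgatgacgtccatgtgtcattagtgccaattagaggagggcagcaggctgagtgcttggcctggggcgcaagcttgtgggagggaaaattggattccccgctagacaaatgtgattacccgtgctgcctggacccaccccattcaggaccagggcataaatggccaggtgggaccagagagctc
DDC, first start, chr7:50565406-50565655, minus strand: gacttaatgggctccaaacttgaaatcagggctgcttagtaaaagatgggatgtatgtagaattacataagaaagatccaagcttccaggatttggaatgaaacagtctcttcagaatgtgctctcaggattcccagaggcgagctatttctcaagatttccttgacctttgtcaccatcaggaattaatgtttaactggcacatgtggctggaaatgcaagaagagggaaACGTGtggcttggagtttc
DDC, second start, chr7:50561072-50561321, minus strand: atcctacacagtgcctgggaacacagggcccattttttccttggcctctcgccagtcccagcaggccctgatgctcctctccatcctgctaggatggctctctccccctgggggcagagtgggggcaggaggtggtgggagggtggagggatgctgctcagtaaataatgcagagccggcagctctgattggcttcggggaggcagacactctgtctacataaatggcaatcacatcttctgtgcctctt
The first DDC start had 1 ACGTG, whose outermost base lies 19 bases before the start, and neither core was found before the second DDC start or the DBH start. Sequences were matched for 4 of the 5 members, with 6 starts in all. Before the first ALK start there were 2 GCGTG and no ACGTG, and before the LMO1 start 1 GCGTG. Before the second ALK start 1 stretch reads as ACGTG on both strands. Over 35116 promoters of the same length in the RefSeq table, 18.5% held ACGTG, 32.2% held GCGTG and 43.2% held at least 1 of them. A match is a description of the letters and not a binding site.

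Summits were called in all 5 windows, and only in hypoxia 2 and hypoxia 3. Normoxia 1, 2 and 3 and hypoxia 1 had 0 summits in each window. The TH window held 1 summit in hypoxia 2 and 2 in hypoxia 3. The DDC window held 3 and 4, and the DBH window held 2 and 4. The ALK window held 5 in hypoxia 2 and 3 in hypoxia 3, and the LMO1 window held 2 and 5. ALK was the window with more summits in hypoxia 2 than in hypoxia 3. Since hypoxia 1 had 0, the groups overlapped in every window.

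**Figure D1:**
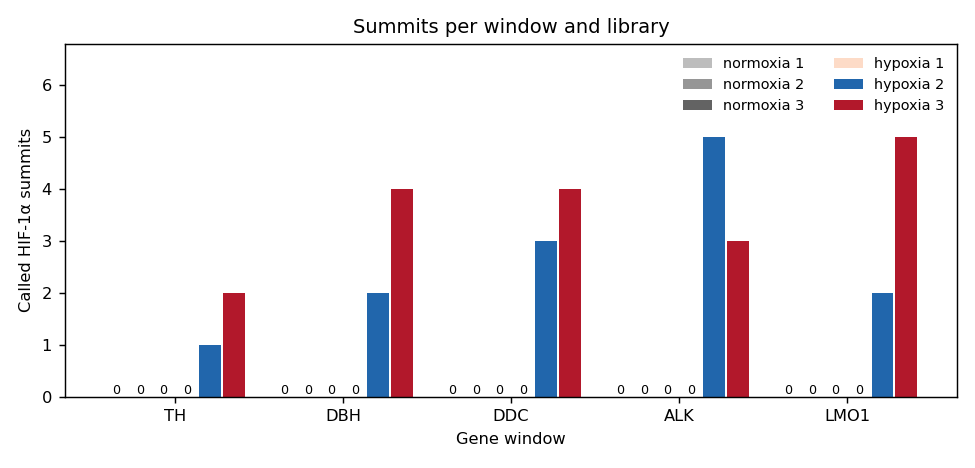
Called HIF-1α summits (vertical axis, number) in each gene window (horizontal axis) in the 6 libraries, 1 bar per library, with 0 written where there was none. Bars stand only for hypoxia 2 and hypoxia 3, from 1 at TH in hypoxia 2 to 5 at ALK in hypoxia 2 and at LMO1 in hypoxia 3.

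Together the windows held 0, 13 and 18 summits in hypoxia 1, 2 and 3, a mean of 10.3 ± 9.29 (SD, n = 3), and a mean of 0 ± 0 (SD, n = 3) in normoxia. The difference of 10.3 summits had a two-sided exact permutation p = 0.4 over the 20 arrangements of the libraries. The hypoxia libraries themselves ran from 0 to 18. Per window the difference was 1 for TH, 2.33 for DDC, 2 for DBH, 2.67 for ALK and 2.33 for LMO1. Each of these 5 had an exact permutation p = 0.4, and 0.4 after Benjamini-Hochberg adjustment over the 5 windows. With summits in only 2 libraries, both from hypoxia, this test gives 0.4 whatever the counts. The p-values therefore do not grade the windows or add to one another. With 3 against 3 libraries no p can fall below 0.1. Summits were present in 2 of 3 hypoxia and 0 of 3 normoxia libraries for every member.

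Hypoxia 2 and hypoxia 3 stood apart from the other libraries in more than their calls at these genes. Their lists held 5833 and 7619 intervals on chromosomes 1 to 22, X and Y, against 1408 in hypoxia 1 and 32 to 109 in normoxia. The fragment extension behind the lists was 155 and 167 bp in hypoxia 2 and hypoxia 3 and 46 to 48 bp in the other 4 libraries, while depth was similar, 5.31 to 6.69 background reads per kb. Among the 4 libraries of short extension, hypoxia 1 had 0 summits in these windows, as had each normoxia library. For these genes, low oxygen and the long extension cannot be told apart in the libraries that gave calls. A call needed at least 6 reads at a summit in each normoxia library, 5 in hypoxia 1, 7 in hypoxia 2 and 6 in hypoxia 3 at the genome-wide background, and weaker binding than that would leave no call. The nearest hypoxia 1 calls outside lay 2.31 kb past the end of the TH window and 40.6 kb past that of the DBH window. No region inside either window had a hypoxia 1 call.

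Windows of the same length over the whole genome served as background. A summit in both hypoxia 2 and hypoxia 3 was found in 4.15% of windows of the TH length, 14.2% of the DDC length, 6.85% of the DBH length, 48.1% of the ALK length and 8.87% of the LMO1 length. All 5 member windows had one. For ALK, whose window is 770 kb long, this is near what any stretch of that length gives. A summit in hypoxia 1 was found in 1.3%, 4.81%, 2.19%, 20.8% and 2.87% of windows of the TH, DDC, DBH, ALK and LMO1 length, and a summit in any normoxia list in 0.142%, 0.539%, 0.237%, 2.72% and 0.311%. Having none in those libraries is thus the usual state of such windows. Per Mb the 5 windows held 6.05 times the summits of all chromosomes in hypoxia 2 (95% interval 3.22 to 10.3) and 6.42 times in hypoxia 3 (3.81 to 10.1); the intervals are exact binomial and cover counting error only. The background windows were not limited to genes, and gene density was not measured.

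Recurrence of the member regions between libraries was close to the background. Of the 19 regions, 8 (42.1%) were called in at least 2 hypoxia lists, against 44.0% of all regions with a hypoxia call. The remaining 11 were called in 1 list, 4 in hypoxia 2 and 7 in hypoxia 3. Of the 12 member regions called in hypoxia 2, 8 (66.7%) were called in hypoxia 3, against 70.6% of all. Of the 15 called in hypoxia 3, 8 (53.3%) were called in hypoxia 2, against 53.7% of all. None of the 8 had a normoxia call, as for 97.8% of all regions called in at least 2 hypoxia lists, and none had a hypoxia 1 call, as for 72.3% of them. The 8 regions comprised 1 at TH, 2 each at DDC, DBH and ALK, and 1 at LMO1.

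**Figure D2:**
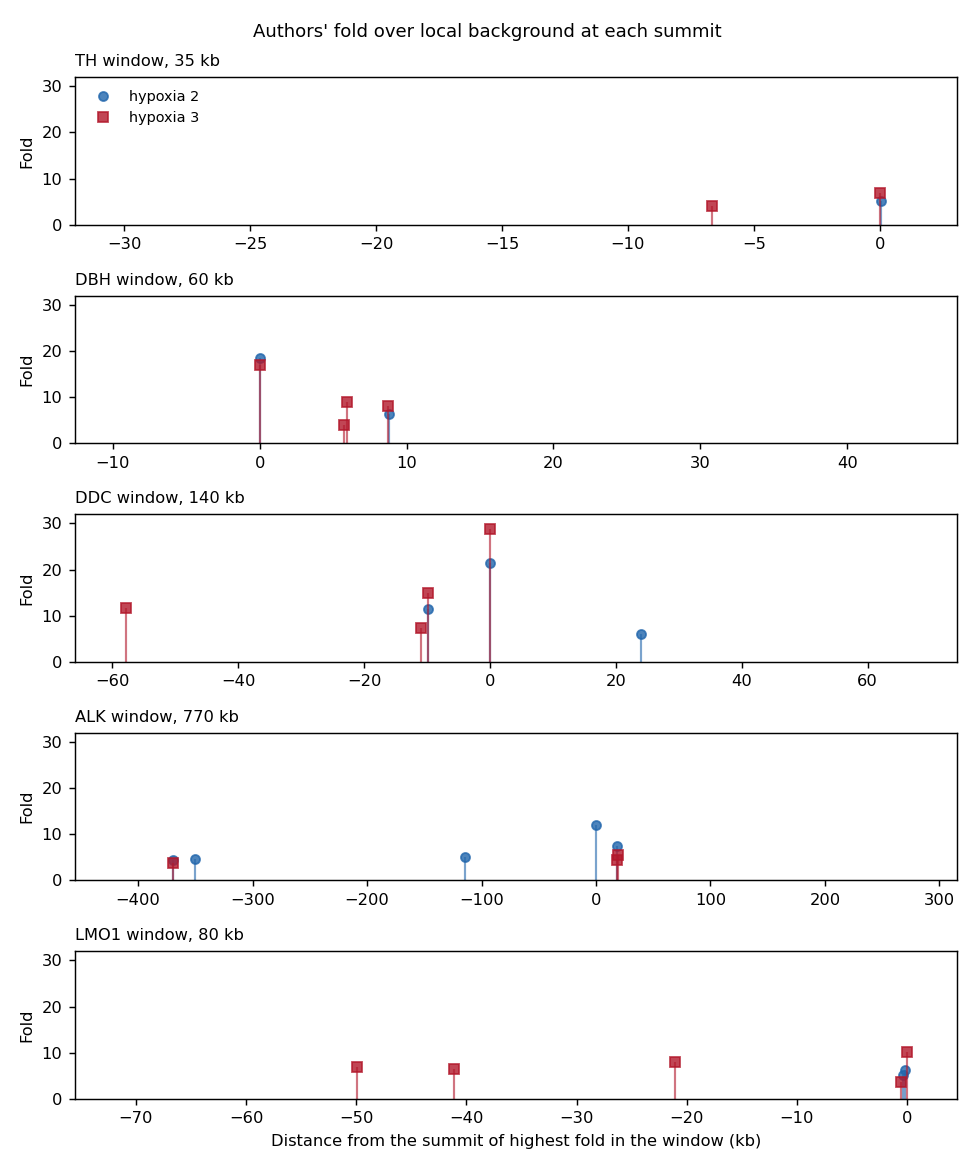
Authors' fold over local background (vertical axis) at each summit against its distance in kb from the window's summit of highest fold (horizontal axis, drawn over the whole window), for hypoxia 2 (circles) and hypoxia 3 (squares). Paired circles and squares at 1 place are regions called in both lists, such as the DDC pair at 21.5 and 28.8. Every window also shows summits of a single list.

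At TH, the gene of the rate-limiting enzyme, calls were weak and lay toward the end of the window. The region chr11:2206718-2207221 was called in hypoxia 2 with a fold of 5.04 over the local background, from 9 reads, and in hypoxia 3 with a fold of 6.83, from 13 reads. Its summits in hypoxia 2 and hypoxia 3 lay 45 bp apart. The fold is the authors' own and describes a peak within its list, since lists of different extension are not on 1 scale. It stood at the 23.2 percentile of folds in the hypoxia 2 list and the 59.7 percentile in hypoxia 3. The second TH region, chr11:2200172-2200368, was called in hypoxia 3 alone, with a fold of 4.01 from 12 reads.

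The strongest site near TH lay just past the window. At chr11:2211906-2212615, with its summits 2.26 to 2.31 kb beyond the window's end, the fold was 5.43, 18.7 and 33.5 in hypoxia 1, 2 and 3, from 9, 48 and 66 reads, with no normoxia call. A further region at chr11:2214373-2215161 had folds of 4.37, 5.28 and 17.8 in hypoxia 1, 2 and 3, from 5, 17 and 33 reads. In the order of genes this stretch lies toward ASCL2, and which gene it belongs to was not determined. With 50 kb added to each side, the TH window held 4, 3 and 5 summits in hypoxia 1, 2 and 3 and 0 in each normoxia library. The difference was 4 (two-sided exact permutation p = 0.1, the smallest possible). With summits in every hypoxia library and none in normoxia, this test gives 0.1 whatever the counts. The 4 summits of hypoxia 1 lay in its intervals at both regions past the window, from 9 and 5 reads at the best summits. At the genome-wide background a hypoxia 1 call needed at least 5 reads. The absence of hypoxia 1 calls at TH therefore holds for the window as drawn and not for its surroundings.

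DDC, the gene of the enzyme that makes dopamine, had the highest folds of all members. The region chr7:50575583-50576288 had a fold of 21.5 in hypoxia 2, from 55 reads, and of 28.8 in hypoxia 3, from 71 reads. The summits were 14 bp apart. It ranked 350 of 5833 intervals by fold in hypoxia 2 and 229 of 7619 in hypoxia 3. Its −log10 q was 59.3 and 86.9. The region chr7:50565775-50566186, which ends 9.4 kb before it, had folds of 11.5 and 14.8, from 29 and 36 reads, with summits 16 bp apart. Both DDC regions stood in the upper part of each list, at the 94 and 83.5 percentile in hypoxia 2 and the 97 and 89.7 percentile in hypoxia 3.

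Most regions of such fold had a hypoxia 1 call, which the strongest DDC region lacked. Of the 231 regions with a fold at least as high in hypoxia 3, this one included, 98.3% were also called in hypoxia 1 and 4 were not. Of the 353 at least as high in hypoxia 2, 94.1% were called in hypoxia 1 and 21 were not. Among 265 regions with folds of 20 to 30 in hypoxia 3 the share was 86.8% (exact 95% interval 82.1% to 90.6%). Among 209 such regions of hypoxia 2 it was 84.7% (79.1% to 89.3%). A call in any normoxia list stood at 16.9% of the 231 regions and 11% of the 353, and at 2.64% (1.07% to 5.37%) of the 265 with folds of 20 to 30. Around DDC, the nearest hypoxia 1 call was 4180 kb from the window and the nearest normoxia 3 call 22700 kb, while normoxia 1 and normoxia 2 had no call on the chromosome outside the window either.

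**Figure D3:**
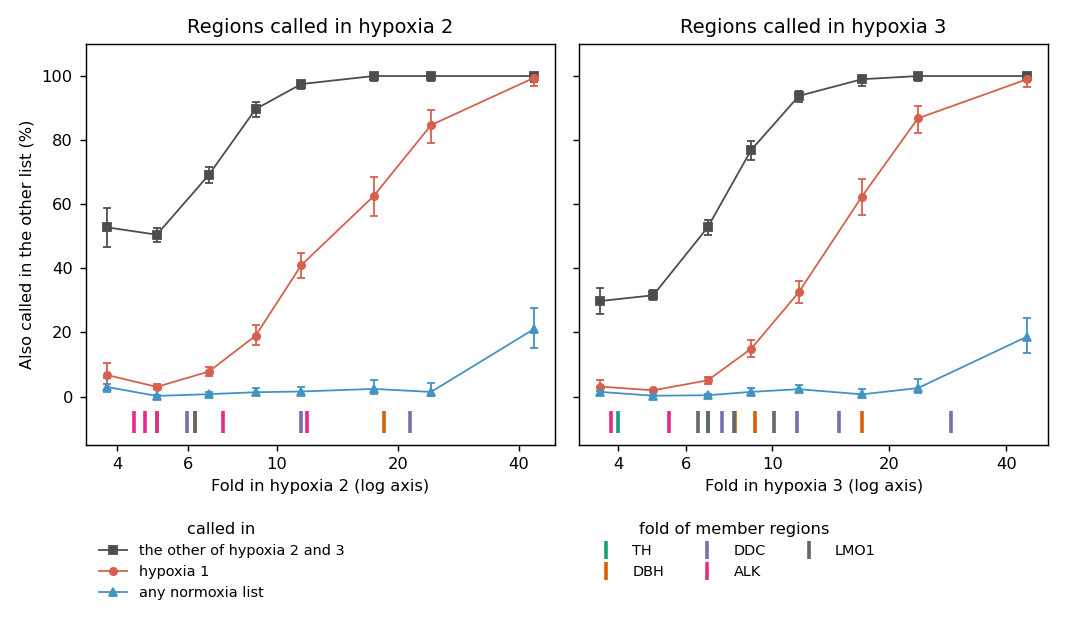
Share of regions also called in another list (vertical axis, percent, with exact 95% intervals) against the fold in hypoxia 2 (left) or hypoxia 3 (right), at the median fold of each bin (log axis); coloured ticks under the curves mark the folds of the member regions. The share called in hypoxia 1 rises from 1.95% for folds of 4 to 6 in hypoxia 3 to 86.8% for folds of 20 to 30, where the strongest DDC region lies at 28.8 without such a call.

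The other 3 regions in the DDC window were each called in 1 list. At chr7:50517994-50518242, near the start of the window, hypoxia 3 had a fold of 11.6 from 22 reads and hypoxia 2 had no call. In the order of genes this end lies toward FIGNL1. Whether FIGNL1 reaches into the window, and which gene the region belongs to, was not determined. FIGNL1 encodes an ATPase that acts in DNA repair. At folds of 10 to 15 in hypoxia 3, 93.8% of 739 regions were called in hypoxia 2 (exact 95% interval 91.8% to 95.4%), and over all 1163 regions at least as strong as this one the share was 99.1%. At chr7:50564674-50565017, 757 bp before the recurrent region at 50565775, hypoxia 3 had a fold of 7.42 from 13 reads. At chr7:50599808-50600024 hypoxia 2 had a fold of 5.98 from 11 reads.

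DBH, whose product makes noradrenaline, had 1 strong region and 2 weaker ones close together. At chr9:136492286-136492920 the fold was 18.5 in hypoxia 2, from 36 reads, and 17 in hypoxia 3, from 31 reads, with summits 34 bp apart. The local background there was 1.08 and 1 times the genome-wide value. It stood at the 92.1 and 91.9 percentile of the hypoxia 2 and hypoxia 3 lists. The DBH region was not called in hypoxia 1. Among 290 regions with folds of 15 to 20 in hypoxia 3, a hypoxia 1 call stood at 62.4% (exact 95% interval 56.6% to 68%). Among 251 such regions of hypoxia 2 it stood at 62.5% (56.2% to 68.6%), so a missing one was common at this strength.

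The region chr9:136501083-136501487 had folds of 6.24 and 8.01 in hypoxia 2 and hypoxia 3, from 13 and 19 reads, and its summits were 56 bp apart. Between these DBH regions, chr9:136498221-136498675 was called in hypoxia 3 alone, as 1 interval with summits of fold 4.01 and 9.01, from 9 and 16 reads. Gaps between the DBH regions were 5.3 and 2.41 kb. Outside the window, chr9:136580279-136580844 was called in all 3 hypoxia libraries, with folds of 7.06, 15 and 24.5 in hypoxia 1, 2 and 3. It lies 40.6 kb past the window's end on the SARDH side. With 50 kb added to each side the DBH difference was 3.33 summits (two-sided exact permutation p = 0.1, the smallest possible). That p was fixed as at TH, since every hypoxia library had a summit and no normoxia library did. The hypoxia 1 summits came from the region 40.6 kb past the window alone.

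ALK, the receptor kinase, had 5 regions spread over its long window, most of them of low fold. At chr2:29873483-29874051 the fold was 7.34 in hypoxia 2, from 24 reads. Hypoxia 3 had 2 intervals there, with folds of 4.31 and 5.4, from 13 and 15 reads. The best summits lay 105 bp apart. At chr2:29485652-29485927 the fold was 4.4 and 3.84 in hypoxia 2 and hypoxia 3, from 12 and 11 reads, with summits 109 bp apart. The 12 and 11 reads of this second region are near the fewest that a call needed, which was 10 in each list at 2.5 times the genome-wide background. Regions called in hypoxia 2 alone lay at chr2:29504615-29504878 with a fold of 4.7, at chr2:29740456-29740709 with 5.02, and at chr2:29854955-29855164 with 11.9.

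The last of these ALK regions was called in hypoxia 2 from 28 reads and had no call in hypoxia 3, the longer list. At folds of 10 to 15 in hypoxia 2, 97.5% of 637 regions were called in hypoxia 3 (exact 95% interval 96% to 98.6%), and over all 929 regions at least as strong as this one the share was 99.6%. Its interval of 210 bp lay between the 185 bp and 467 bp of the recurrent ALK regions in the same list. Per Mb, the ALK window held 6.49 and 3.9 summits in hypoxia 2 and hypoxia 3, the lowest of the 5 windows; the next lowest, DDC, held 21.4 and 28.6. The nearest hypoxia 1 call lay 784 kb away.

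Local background was higher at ALK than at most other member summits. The local background is the number of reads expected at a summit. Whether the input libraries supplied it is not given in the sources at hand. It was 1.57 to 2.62 times the genome-wide value at the 5 ALK summits of hypoxia 2 and 2.21 to 2.53 times at the 3 of hypoxia 3. It was 1.09 to 1.74 and 1 to 1.69 times at DDC, 1.08 to 1.35 and 1 to 1.69 times at DBH, and 1 to 1.22 and 1 to 1.69 times at LMO1. At TH it was 1.07 times in hypoxia 2 and 1.18 and 2.53 times in hypoxia 3. The median over all summits was 1.35 and 1.38 in hypoxia 2 and hypoxia 3, and on chromosome 2 outside 14 to 18 Mb it was 1.51 and 1.55. For comparison, in the stretch around the amplified MYCN on the same chromosome it was 151 and 150. A higher local background lowers the fold that a given number of reads gives, and the ALK values were not tested.

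**Figure D4:**
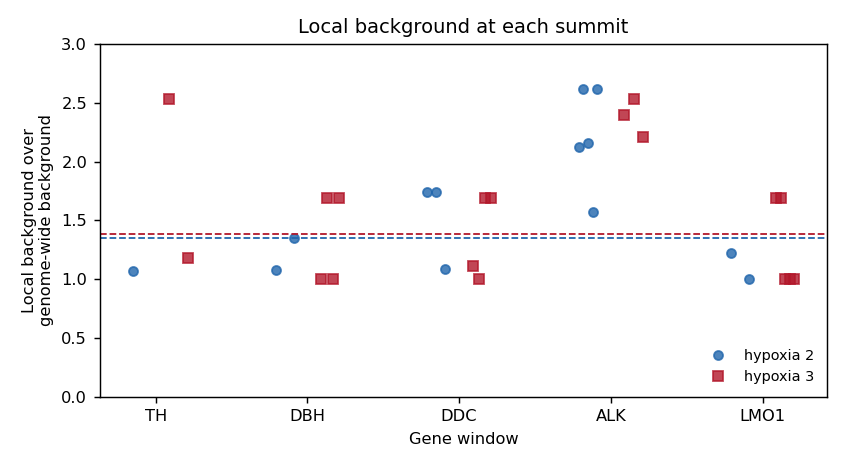
Local background at each member summit as a multiple of the library's genome-wide background (vertical axis), by gene window (horizontal axis), in hypoxia 2 (circles) and hypoxia 3 (squares); dashed lines give the median over all summits of each list, 1.35 and 1.38. The ALK summits lie between 1.57 and 2.62, above both lines.

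LMO1, the cofactor, had 1 recurrent region and 3 called in hypoxia 3 alone. At chr11:8304923-8305626 hypoxia 2 had 1 interval with summits of fold 5.19 and 6.25, from 10 and 11 reads. Hypoxia 3 had 2 intervals there, with folds of 3.71 and 10.1, from 6 and 18 reads. The best summits lay 164 bp apart, the widest spacing among the 8 recurrent regions. The regions of hypoxia 3 alone were chr11:8255426-8255729 with a fold of 6.81, chr11:8264259-8264493 with 6.41 and chr11:8284307-8284614 with 7.95, from 14 to 16 reads each. At folds of 6 to 8 in hypoxia 3, 52.8% of all 1719 regions were called in hypoxia 2, so a missing call there was common. A further region at chr11:8227804-8228148, 2 kb before the window, had folds of 6.77 and 8.01 in hypoxia 2 and hypoxia 3.

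Among themselves the members ran from near the bottom to the upper part of the lists. Folds of the 13 member summits in hypoxia 2 ran from 4.4 to 21.5, with a median of 6.24 against 6.46 over the whole list. Those of the 18 in hypoxia 3 ran from 3.71 to 28.8, with a median of 7.12 against 6.02. Reads behind them had a median of 14 (9 to 55) in hypoxia 2 and 15 (6 to 71) in hypoxia 3, against 14 in each whole list. The highest fold in the lists was 107 and 137, so the strongest DDC region stood well below the top. By its highest fold in hypoxia 3 the order of the windows was DDC 28.8, DBH 17, LMO1 10.1, TH 6.83 and ALK 5.4. In hypoxia 2 it was DDC 21.5, DBH 18.5, ALK 11.9, LMO1 6.25 and TH 5.04. DDC and DBH led in both lists, and the order of ALK, LMO1 and TH differed between them. Both orders hold only for the windows as drawn. Those run from 35 kb at TH to 770 kb at ALK and hold unequal numbers of summits, with which a highest value can rise. The ALK value of 11.9 came from a region called in hypoxia 2 alone. The site just past the TH window had folds of 18.7 and 33.5 in hypoxia 2 and hypoxia 3.

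**Figure D5:**
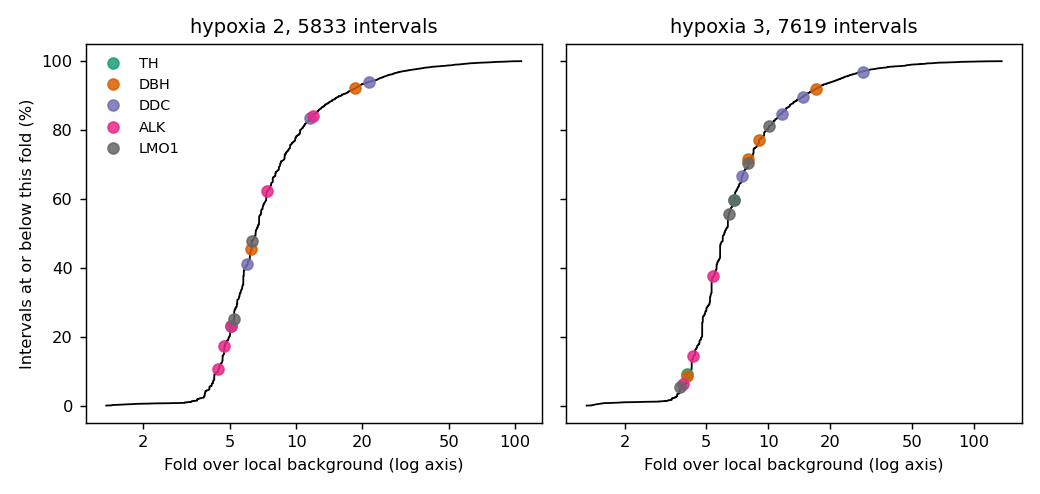
Percent of a list's intervals at or below a fold (vertical axis) against the authors' fold over local background (horizontal axis, log scale) in hypoxia 2 (left) and hypoxia 3 (right); the line is the whole list and coloured points are the member summits. DDC and DBH points reach highest, at folds of 21.5 and 18.5 in hypoxia 2 and 28.8 and 17 in hypoxia 3, while others lie down to 3.71.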

How the data were processed

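HIF-1α ChIP-seq peak lists of 3 hypoxia and 3 normoxia libraries were used, grouped by sample title. The submitters' processing notes name BWA 0.7.17, MACS2 and the build hg19. For MACS2, version and settings are not given in the sources at hand. The deposited narrowPeak tables hold, per summit, a fold ratio over local background, −log10 p and −log10 q values, and a score equal to 10 times the −log10 q cut to a whole number in all 16463 rows. Peaks were called by the authors per sample.

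The members and alternatives were chosen with earlier results of these data known. Every member was named and every summit in its window reported; regions of at least 2 lists were given in full. Windows were applied to the summit position. Whole reads and local background were solved from fold and −log10 p (tolerance 0.001), which succeeded for 100% of summits; on 500 simulated summits 100% were recovered. Each list's genome-wide background was its smallest local background, and its extension the length of its shortest interval. Intervals sharing 1 bp were joined. Counts were compared by two-sided exact permutation of libraries. Percentages of windows come from windows laid end to end along each chromosome up to its last interval. A median of 10 to 22.5 reads lay behind a summit, which limits the precision of any 1 summit. Python 3.11.15 with scipy 1.17.1 was used.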

Additional observations from a re-analysis of the deposited data

How the results depend on the processing

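Alternatives bearing on the counts were other peak thresholds, 1 common −log10 p of 7.15, lists cut to the 44 summits of the shortest, intervals in place of summits, wider windows, no high local background, and each library left out. Of 15 alternatives the excess of hypoxia stayed above 0 under 14, for the 5 windows together and for each window. Exact permutation p lay between 0.1 and 1 and could not pass a threshold of 0.05. Normoxia had 0 summits in every window under every setting, so the excess could not fall below 0. Leaving out a normoxia library, or using the replicate block, could not change the excess by construction. With lists of equal length it was 0 for all by construction, since no member summit is among the first 44 of its list, and this says nothing of stability. It lay between 6.5 and 15.5 summits with 1 library left out, against 10.3, and was 6.33 at a fold of at least 6 and 16 in windows widened by 50 kb. Left out singly, hypoxia 1 gave 15.5 and hypoxia 3 gave 6.5. The TH difference was 0.333 at a fold of at least 6 (exact permutation p = 1) and 4 in wider windows. That of ALK was 0.667 at that fold (exact permutation p = 1). At that fold TH had a summit in hypoxia 3 alone and ALK in hypoxia 2 alone. These p-values were thereby fixed whatever the counts.

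The 8 regions of at least 2 hypoxia lists, all without a normoxia call, became 5 at a fold of at least 6, 13 in wider windows (all 13 without one), 0 with lists of equal length and 0 when all 3 hypoxia lists were required. With 1 library left out they numbered 0 to 8: 0 without hypoxia 2 or without hypoxia 3, by construction, since no call came from hypoxia 1. The density ratio of hypoxia 1 was 0 in the windows as drawn and 6.08 in wider windows. With same-numbered libraries as a replicate block the difference was 10.3 (exact sign-flip permutation p = 0.5), the same value by construction. That p was fixed too, since only hypoxia 2 and hypoxia 3 had summits. The labels give only numbers. Since normoxia was 0 in every window, no correlation of same-numbered libraries could be formed. Depth limits these results: 6 to 71 reads lay behind a member summit.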
